A study of Mus musculus with 8 samples.

Results

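The vacuolar proton ATPase (V-ATPase) was described through the 10 subunit genes named for it, ATP6V1A, ATP6V1B2, ATP6V1C1, ATP6V1D, ATP6V1E1, ATP6V1G1, ATP6V1H, ATP6V0A1, ATP6V0C and ATP6V0D1, each taken from the count table by its symbol. All 10 had a row among the 33514 gene rows of the table. RNA came from cultured C57BL/6 adult mouse cardiomyocytes in 2 groups of 4 libraries, one transfected with siRNA to Hoxa5 (siHoxa5) and the other with a negative control siRNA (siN). Both groups received phenylephrine, an alpha1-adrenergic agonist used to induce hypertrophic growth, at 100 µM for 24 h, starting 24 h after transfection; no library without it was used here. The question is what targeting Hoxa5, a homeobox transcription factor, does to transcript levels in these cells, and siHoxa5 was compared with siN. Since no label ties a repeat to its own animal or culture, the p-values reflect differences among these libraries alone, which may be technical.

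The V-ATPase is a rotary pump in the membranes of lysosomes, endosomes and secretory vesicles. Its cytosolic V1 sector binds and hydrolyses ATP, and its membrane V0 sector carries protons into the lumen. The resulting acidity drives lysosomal proteases and receptor sorting, and the pump also takes part in amino acid signalling to mTORC1 at the lysosome. In cardiomyocytes lysosomal acidification is needed for autophagy, by which these long-lived cells renew their organelles.

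No member passed the test between siHoxa5 and siN, and the members were measured at low counts. Of the 10, 6 passed the filter on low counts and were tested, and 0 of these 6 had an adjusted p under 0.05 (edgeR quasi-likelihood test, Benjamini-Hochberg adjustment over 3020 genes), where 7.12% of all tested genes did (3.38% lower and 3.74% higher in siHoxa5). At an unadjusted p under 0.05 the members' count was also 0, against 19.6% of tested genes. DESeq2 and limma-voom called 0 members as well, with DESeq2 giving no adjusted p for ATP6V1B2, ATP6V1C1 and ATP6V0D1; they called 4.77% and 6.72% of all genes with an adjusted p. Of the 1348 tested genes whose mean level lay within the range of the tested members, 17.3 to 81.3 CPM (counts scaled to a library of 1000000), 3.12% were called. The median log2 fold change of the 6 was -0.37, beside 0.00 over all tested genes. Below 0 were 4 of the 6, where 50.6% of tested genes were.

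HOXA5, the siRNA target, had 1, 3, 4 and 1 counts in siHoxa5 libraries 1 to 4, against 2, 0, 3 and 3 in siN libraries 1 to 4. These few counts show no lower level in the libraries labelled siHoxa5 (ratio of rates 1.24, exact 95% interval 0.426 to 3.70, counting error only), and directions are those of the labels. Library totals were 560190 to 619942 counts in siHoxa5 (mean 592601 ± 29616, SD, n = 4) and 635824 to 658192 in siN (646832 ± 10946, SD, n = 4), so the siHoxa5 libraries were the shallower ones. Library by library the 10 members together had 115 to 130 counts in siHoxa5 and 153 to 165 in siN. Symbols in the files are those of human genes, and not in their spelling alone. ATP6V0E1 stands where the mouse annotation (GENCODE M21) has Atp6v0e, and C12orf66, CSNK1A1L and AL133387.3 are among the tested rows. Of the 3020 tested genes 95.9% matched a mouse protein-coding transcript by symbol. How reads were assigned to these names is not stated, and its part in levels and zeros was not tested. Genes that every cell uses can be at 0, so a 0 is not read as absence. On the first principal component (25.8% of variance) all siHoxa5 libraries had values below 0 and all siN libraries values above 0. Within siHoxa5, libraries 2 and 4 (-10.8 and -11) lay farther out than libraries 1 and 3 (-2.74 and -4.69). On the second component libraries 2 and 4 were at opposite ends (8.3 and -13.4), so they were not alike. Of 14 cardiomyocyte markers 9 had counts, and their summed level was 62457 to 67815 CPM in siHoxa5 and 48720 to 51921 CPM in siN, without overlap. The markers did not all move one way. Of these 9, 5 passed the edgeR test higher in siHoxa5 and 1 lower, where 3.74% and 3.38% of all tested genes did. Their log2 fold changes ran from -0.44 to 0.66, and a single gene held 131765 of the list's 280605 counts. Fibroblast markers (6 of 8 with counts, mostly the collagen genes COL1A1 and COL1A2) summed to 10904 to 12846 CPM in siHoxa5 and 10179 to 10848 CPM in siN, also without overlap. Macrophage markers had counts for 2 of 10 genes, with CD68, ADGRE1 and C1QA at 0, and summed to 0 to 1.82 CPM in siHoxa5 and 0 to 1.57 CPM in siN. Endothelial markers (2 of 8 with counts) ranged from 3.64 to 32.7 CPM in siHoxa5 and 14.2 to 31.7 CPM in siN, and mural cell markers (2 of 6) from 12.8 to 26.1 CPM in siHoxa5 and 9.44 to 29.2 CPM in siN. The part of depth and of the cardiomyocyte and fibroblast shares in the members' values was not tested. In such bulk samples fewer cells of a type and less RNA per cell cannot be told apart.

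**Figure D1:**
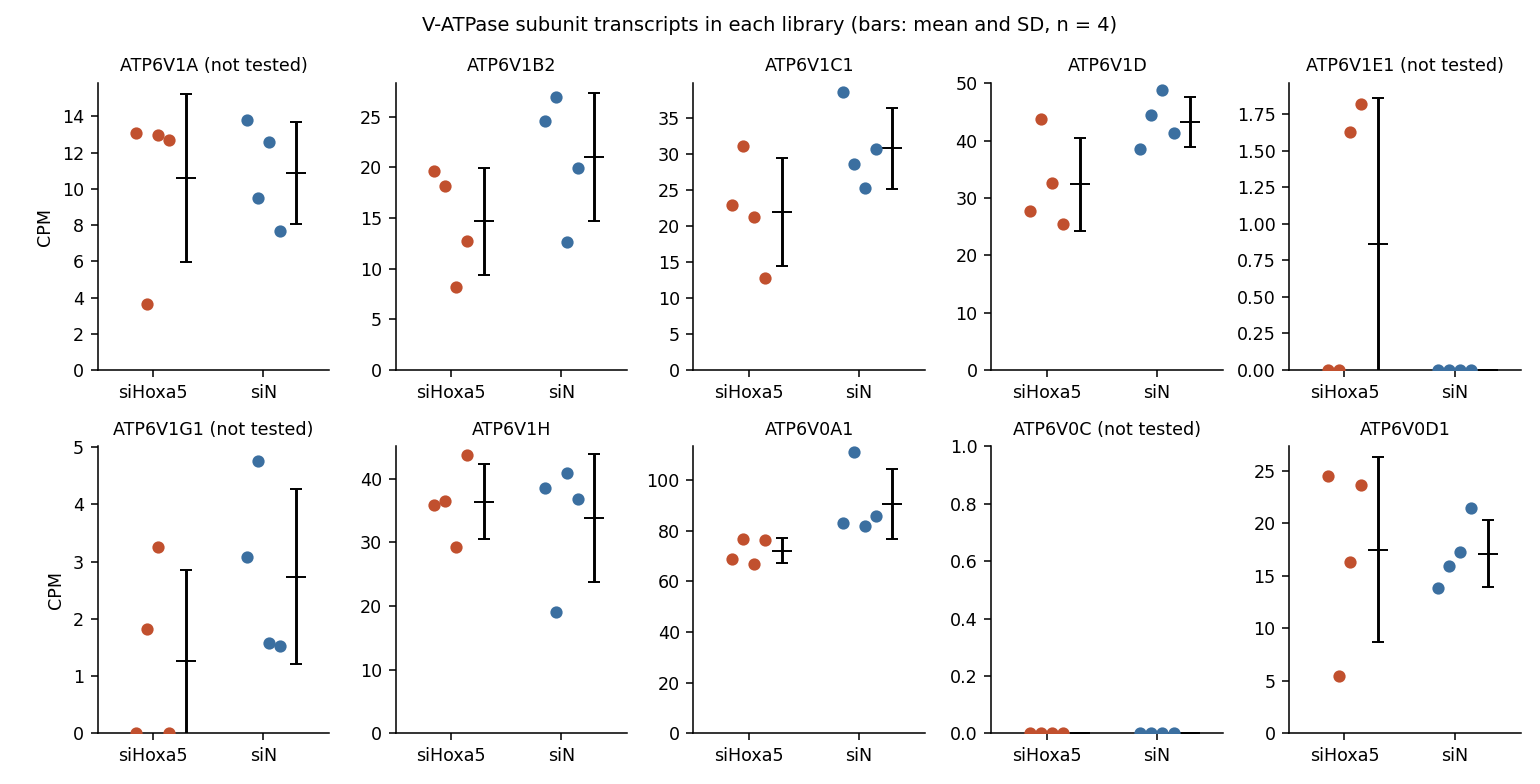
CPM on TMM-scaled library sizes (y axis, a separate scale in each panel) of the 10 V-ATPase subunit genes in the 4 siHoxa5 libraries (left points) and the 4 siN libraries (right points), with the mean and SD as bars; lower bars that would pass 0 are cut there. The groups separate without overlap for ATP6V0A1, at 66.9 to 76.5 CPM in siHoxa5 and 81.8 to 111 CPM in siN, and ATP6V0C is at 0 in all 8 libraries.

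In the V1 sector the catalytic head is built of A and B subunits. ATP6V1A, the A subunit that hydrolyses ATP, had 8, 2, 8 and 7 counts in siHoxa5 libraries 1 to 4, against 9, 6, 8 and 5 in siN libraries 1 to 4. Every library but siHoxa5 library 2 lay between 5 and 9 counts, and the groups overlapped. ATP6V1A failed the filter; its summed 25 counts in siHoxa5 and 28 in siN gave a ratio of rates of 0.986 (exact 95% interval 0.552 to 1.75, counting error only). ATP6V1B2, the B subunit of most tissues, which also contributes to the nucleotide-binding sites, had 19.6, 18.2, 8.15 and 12.7 CPM in siHoxa5, against 24.6, 27.0, 12.6 and 19.9 CPM in siN. Only siHoxa5 library 3 lay below the lowest siN library. The log2 fold change of ATP6V1B2 was -0.52 (SE 0.37, 95% interval -1.25 to 0.22, edgeR adjusted p = 0.474). ATP6V1B1, the paralogous B subunit of kidney intercalated cells, had 0 counts in every library.

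Stalk subunits link the head to the membrane sector. ATP6V1D, the central rotor shaft, had 27.8, 43.7, 32.6 and 25.5 CPM in siHoxa5, against 38.5, 44.4, 48.8 and 41.4 CPM in siN. Of the siHoxa5 libraries 3 lay below the lowest siN library and library 2 lay among the siN values, so the groups overlapped. The means were 32.4 ± 8.12 CPM in siHoxa5 and 43.3 ± 4.43 CPM in siN (SD, n = 4 each), and the log2 fold change was -0.42 (SE 0.25, 95% interval -0.92 to 0.08, edgeR adjusted p = 0.364). ATP6V1C1, a subunit that joins the outer stalks and is released when the pump comes apart, had 22.9, 31.0, 21.2 and 12.7 CPM in siHoxa5, against 38.5, 28.6, 25.2 and 30.6 CPM in siN. Again 3 siHoxa5 libraries were under every siN library and library 2 was not. Its log2 fold change was -0.48 (SE 0.30, 95% interval -1.08 to 0.12, edgeR adjusted p = 0.387).

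ATP6V1H, which bridges stalk and membrane sector and inhibits the detached V1 sector, had 35.9, 36.4, 29.3 and 43.7 CPM in siHoxa5, against 38.5, 19.0, 40.9 and 36.8 CPM in siN. The groups overlapped, with siN library 2 the lowest of all. ATP6V1H had a log2 fold change of 0.10 (SE 0.26, 95% interval -0.42 to 0.61, edgeR adjusted p = 0.895). Leaving out siN library 2 turned the value to -0.09. The peripheral stalk partners E and G were hardly counted. ATP6V1G1 had 0, 1, 2 and 0 counts in siHoxa5, against 2, 3, 1 and 1 in siN, and its summed 3 and 7 counts gave a ratio of 0.474 (exact 95% interval 0.0790 to 2.07). ATP6V1E1 had 0, 0, 1 and 1 counts in siHoxa5 and 0 in each siN library, within the 3 counts that a count of 0 allows in each group, so no fold was computed.

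In the V0 sector ATP6V0A1, the large a1 subunit through which protons enter and leave the ring, was the most counted member, with 35.5% of the members' counts. It had 42, 42, 41 and 42 counts in siHoxa5 (68.6, 76.5, 66.9 and 76.4 CPM), against 54, 70, 52 and 56 counts in siN (83.1, 111, 81.8 and 85.8 CPM). Every siHoxa5 library lay below every siN library; 5.76% of all tested genes, and 3.56% of those in the members' range of levels, separated in this direction. The means were 72.1 ± 5.09 CPM in siHoxa5 and 90.5 ± 13.9 CPM in siN (SD, n = 4 each), and the log2 fold change was -0.33 (SE 0.17, 95% interval -0.67 to 0.02). That difference did not pass the test (edgeR unadjusted p = 0.0606, adjusted p = 0.280). The siHoxa5 counts of 41 to 42 lay closer together than counting error alone, an SD of 6.46, would place them, while the siN counts had an SD of 8.16 where counting error gives 7.62. Without siN library 2, the highest, the log2 fold change was -0.21.

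ATP6V0D1, which seats the rotor on the ring, had 15, 3, 10 and 13 counts in siHoxa5 (24.5, 5.46, 16.3 and 23.6 CPM), against 9, 10, 11 and 14 in siN (13.8, 15.9, 17.3 and 21.4 CPM). The siHoxa5 libraries lay on both sides of the siN values, library 2 below them all and libraries 1 and 4 above. ATP6V0D1 had a log2 fold change of 0.04 (SE 0.37, 95% interval -0.70 to 0.78, edgeR adjusted p = 0.973); leaving out siHoxa5 library 2 moved it to 0.32 and leaving out siHoxa5 library 1 to -0.17. ATP6V0C, the proteolipid that makes up most of the proton-carrying ring, had 0 counts in all 8 libraries; RefSeq (GRCm38.p6) lists 2 Atp6v0c pseudogenes in the mouse, and whether shared reads were left out of its row was not tested.

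**Figure D2:**
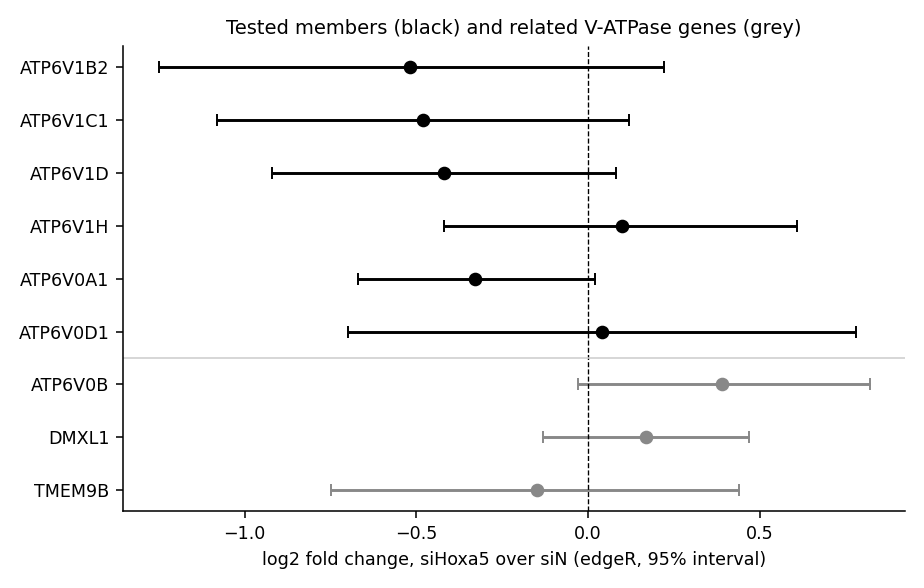
Log2 fold change of siHoxa5 over siN (x axis) with 95% intervals from the edgeR fit for the 6 tested members (black) and the 3 tested genes of the other V-ATPase lists (grey). All 9 intervals include 0; that of ATP6V0A1 runs from -0.67 to 0.02 and that of ATP6V0D1 from -0.70 to 0.78.

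In linear terms the interval of ATP6V0A1 ran from 0.627 to 1.01 times the siN level, that of ATP6V1D from 0.530 to 1.06, that of ATP6V1C1 from 0.472 to 1.08 and that of ATP6V1B2 from 0.421 to 1.16. For ATP6V1H it ran from 0.746 to 1.53 and for ATP6V0D1 from 0.615 to 1.72. A fall of ATP6V1H or ATP6V0D1 under those lower bounds lay outside the intervals. The median SE of a log2 fold change was 0.26 among genes at the members' levels and 0.17 over all tested genes.

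**Figure D3:**
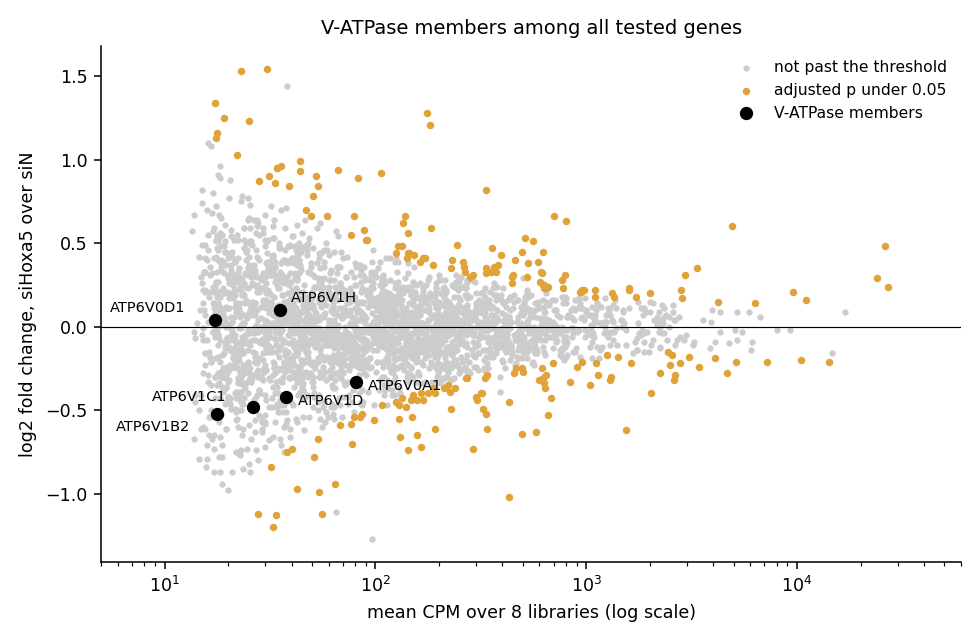
Log2 fold change of siHoxa5 over siN (y axis) against mean CPM over the 8 libraries (x axis, log scale) for the 3020 tested genes, with genes past the threshold in orange and the 6 tested V-ATPase members in black. The members sit at 17.3 to 81.3 CPM, below the median level of 88.0 CPM, and did not pass. Of the 1348 tested genes in this range of levels 3.12% passed.

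Summed over the 10 members, the level was 212, 217, 192 and 209 CPM in siHoxa5 libraries 1 to 4, against 254, 260, 241 and 245 CPM in siN libraries 1 to 4. The highest siHoxa5 library stayed under the lowest siN library, with means of 208 ± 10.6 CPM in siHoxa5 and 250 ± 8.75 CPM in siN (SD, n = 4 each), a ratio of 0.831. Because the members were named with earlier results known, the sum is a description and was given no test. How often sums of other genes separate in this way was not computed. Without ATP6V0A1 it was 144, 140, 126 and 133 CPM in siHoxa5 and 171, 149, 159 and 159 CPM in siN, again without overlap. Split by sector, the 7 V1 members summed to 118 ± 12.1 CPM in siHoxa5 and 142 ± 10.2 CPM in siN (SD, n = 4 each). The 3 V0 members summed to 89.6 ± 8.57 CPM in siHoxa5 and 108 ± 13.7 CPM in siN (SD, n = 4 each). In each sector the groups overlapped. Of the V0 members' counts 82.4% came from ATP6V0A1, so the V0 sum is mostly that gene. ATP6V0B is a further V0 subunit that is not among the 10. With it added to all 10 members, the sum was 256 to 293 CPM in siHoxa5 and 291 to 309 CPM in siN. The groups then overlapped and the ratio was 0.911.

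**Figure D4:**
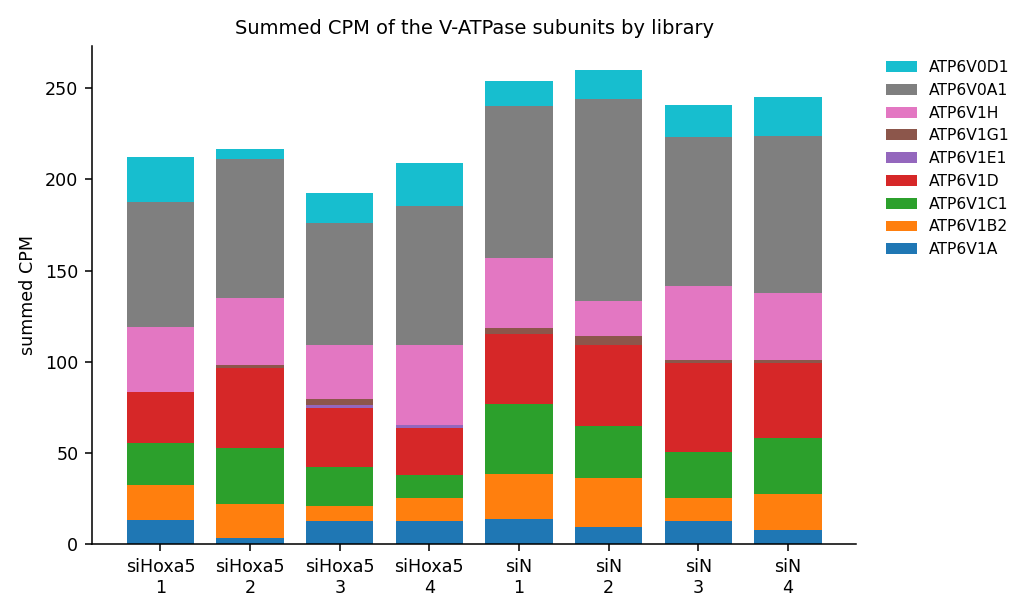
Stacked CPM (y axis) of the V-ATPase subunits in each library, siHoxa5 libraries on the left and siN libraries on the right, coloured by gene; ATP6V0C, at 0, adds no bar. The stacks reach 192 to 217 CPM in siHoxa5 and 241 to 260 CPM in siN, and ATP6V0A1 is the largest piece in every library.

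Per kilobase of the longest protein-coding transcript (GENCODE M21), ATP6V0A1 (18.0 ± 1.27 CPM per kb) and ATP6V1H (17.7 ± 2.85) had the highest levels in siHoxa5, followed by ATP6V0D1 (10.7 ± 5.41), ATP6V1C1 (10.6 ± 3.61) and ATP6V1D (8.83 ± 2.21), then ATP6V1B2 (5.19 ± 1.86) and ATP6V1A (2.51 ± 1.10, SD, n = 4 each). In siN the level of ATP6V0A1 was 22.6 ± 3.46, followed by ATP6V1H (16.5 ± 4.87), ATP6V1C1 (14.8 ± 2.72), ATP6V1D (11.8 ± 1.21), ATP6V0D1 (10.5 ± 1.97), ATP6V1B2 (7.44 ± 2.25) and ATP6V1A (2.58 ± 0.667 CPM per kb, SD, n = 4 each). ATP6V1G1 and ATP6V1E1 were lower still, at 1.12 ± 1.39 and 0.657 ± 0.761 in siHoxa5, against 2.41 ± 1.35 and 0 in siN, and ATP6V0C was at 0 in both groups. The 1 SD ranges of neighbours in these orders overlapped, except those of ATP6V1B2 and ATP6V1A, and of ATP6V1G1 and ATP6V1E1, in siN. Subunits of one complex thus stood far apart in these counts, and how reads were assigned to symbols is not stated, so an order between genes need not be one of transcripts.

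The member genes are scattered over the mouse genome (GRCm38, GENCODE M21). Atp6v0a1 lies at chr11:101009452-101063719 on the plus strand, Atp6v1d at chr12:78840725-78861638 and Atp6v1a at chr16:44085402-44139705, both on the minus strand. Atp6v1b2 (chr8:69088646-69113711, plus strand) and Atp6v0d1 (chr8:105524465-105566047, minus strand) share a chromosome without being neighbours. Many lysosomal genes carry a palindromic E-box read by TFEB, known as the CLEAR element, so the letters TCACGTGA, which contain the shorter CACGTG, were searched on both strands of RefSeq promoter windows (GRCm38.p6, 250 bases before to 50 after the start). Of the 10 members 6 matched a window, with 8 windows in all since a gene can have several. Of these 8 windows 2, those of Atp6v1a and Atp6v0d1, held TCACGTGA, as did 0.974% of all 32851 windows. CACGTG was in the same 2 and in 7.15% of all windows. The promoters of the member with the smallest p and of the pair with the motif are shown to 10 bases after the start, with the motif in capitals (plus strand for Atp6v0a1 at chr11:101010148-101010407, minus strand for Atp6v0d1 at chr8:105566055-105566314 and Atp6v1a at chr16:44139250-44139509).
Atp6v0a1: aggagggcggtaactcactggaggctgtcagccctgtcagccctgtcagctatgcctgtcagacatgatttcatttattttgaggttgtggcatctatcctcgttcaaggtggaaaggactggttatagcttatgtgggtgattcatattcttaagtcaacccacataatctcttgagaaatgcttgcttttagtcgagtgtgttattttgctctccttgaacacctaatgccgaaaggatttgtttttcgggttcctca
Atp6v0d1: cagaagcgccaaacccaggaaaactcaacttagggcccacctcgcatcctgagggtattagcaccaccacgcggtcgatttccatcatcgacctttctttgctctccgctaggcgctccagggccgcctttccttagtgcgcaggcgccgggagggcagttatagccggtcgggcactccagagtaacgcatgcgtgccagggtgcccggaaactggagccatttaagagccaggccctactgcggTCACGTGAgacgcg
Atp6v1a: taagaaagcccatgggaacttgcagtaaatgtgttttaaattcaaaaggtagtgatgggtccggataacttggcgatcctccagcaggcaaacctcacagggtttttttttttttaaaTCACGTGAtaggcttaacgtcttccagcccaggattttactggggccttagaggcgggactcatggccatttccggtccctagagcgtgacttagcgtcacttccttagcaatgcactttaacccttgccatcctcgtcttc
The motif began 4 bases before the start in Atp6v0d1, and so ran across it, and 132 bases before the start in Atp6v1a. The windows of Atp6v0a1 and Atp6v1a lie wholly inside the gene spans given above. Sequence before the outermost start of these genes was thus not searched. Beside these letters, ATP6V0D1 had a log2 fold change of 0.04, ATP6V1A a ratio of 0.986, and ATP6V0A1, whose window lacks them, -0.33. The windows of ATP6V1D (-0.42), ATP6V1E1 and ATP6V0C lack them too. Of the 15 other subunit and accessory genes 13 matched a window. Among these, 1 held TCACGTGA, ATP6V0E1, whose summed 3 counts in siHoxa5 and 1 in siN were too few to test. ATP6V0B, whose window holds CACGTG at 2 places but not TCACGTGA, had 0.39. A match is a description of the sequence and not a site. TFEB itself, named here for the motif and outside the rule for named genes, had 14.7, 25.5, 17.9 and 20.0 CPM in siHoxa5, against 27.7, 14.3, 14.2 and 21.4 CPM in siN, with overlapping groups (edgeR adjusted p = 0.995).

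Among the 15 other V-ATPase subunit and accessory genes listed, 7 were at 0 in all libraries and 1, ATP6V0B, was tested; 0 passed with edgeR, also at an unadjusted p under 0.05, or with DESeq2 or limma-voom. ATP6V0B, a second proteolipid of the ring, had 27, 27, 50 and 46 counts in siHoxa5 (44.1, 49.2, 81.5 and 83.7 CPM), against 36, 19, 41 and 30 in siN (55.4, 30.2, 64.5 and 46.0 CPM). Within siHoxa5, libraries 3 and 4 were above every siN library and libraries 1 and 2 were among them. ATP6V0B had a log2 fold change of 0.39 (SE 0.22, 95% interval -0.03 to 0.82, edgeR adjusted p = 0.293), a value above 0 where that of ATP6V0A1 was below; the difference between these genes was not tested. Of 14 assembly and regulatory genes 9 were at 0 and 2 were tested, with 0 passing by any of these counts. DMXL1, of the complex that reassembles V1 with V0, had 121 ± 16.8 CPM in siHoxa5 and 107 ± 19.0 CPM in siN (log2 fold change 0.17), and TMEM9B 24.6 ± 6.80 CPM in siHoxa5 and 27.7 ± 5.12 CPM in siN (-0.15).

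Of the lysosomal genes around the pump 0 passed the test in either direction with edgeR, DESeq2 or limma-voom. Of 22 lysosomal hydrolases 12 were at 0 in every library, no gene had over 4 counts in all and 0 were tested; cathepsin D, a protease used by nearly every cell, was among those at 0. Of 18 lysosomal and endosomal membrane genes 4 were tested and 0 passed with edgeR, where 7.12% of all tested genes did. The median log2 fold change of these 4 was 0.00. The unadjusted edgeR p was under 0.05 for 2 of them, against 19.6% of all tested genes. CLCN6, a chloride-proton exchanger of late endosomes, had 18.0, 34.6, 17.9 and 20.0 CPM in siHoxa5, against 44.6, 30.2, 37.8 and 35.2 CPM in siN, and 3 siHoxa5 libraries lay under the lowest siN library. The log2 fold change of CLCN6 was -0.72 (SE 0.29, edgeR adjusted p = 0.122); without siHoxa5 library 2 it was -0.98 and past the threshold (adjusted p = 0.0496). CLCN3, an endosomal exchanger that supplies counter-ions to the pump, had 356 ± 20.3 CPM in siHoxa5 and 304 ± 38.9 CPM in siN (log2 fold change 0.23, adjusted p = 0.128). CLCN5, an endosomal exchanger (0.17), did not pass.

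At the lysosomal surface the pump works with the Rag GTPases, which call mTORC1 to the membrane. Of 18 genes of this nutrient-sensing list 6 were tested and 0 passed, where 7.12% of all tested genes did (median log2 fold change 0.10). The unadjusted edgeR p was under 0.05 for 1 of these 6, against 19.6% of all tested genes. RRAGC, a Rag GTPase, had 55.5, 56.5, 62.0 and 50.9 CPM in siHoxa5, against 73.8, 68.3, 83.4 and 84.3 CPM in siN. Its groups did not overlap, as for 12.0% of tested genes in either direction, but the test was not passed (log2 fold change -0.46, SE 0.19, edgeR adjusted p = 0.139). MTOR, the kinase, had 156 ± 5.26 CPM in siHoxa5 and 137 ± 8.21 CPM in siN, also without overlap and in the opposite direction (0.19, adjusted p = 0.464). FNIP1, a partner of folliculin (0.28), and MITF, a relative of TFEB (0.27), did not pass.

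The 3 tested genes whose pattern over the 8 libraries was nearest to that of ATP6V0A1, by the root mean square difference of centred log2 CPM among 3019 genes, were CLINT1 (0.0840), CUL4B (0.101) and SEC62 (0.108). CLINT1 had 189 ± 11.8 CPM in siHoxa5 and 221 ± 26.5 CPM in siN, CUL4B 220 ± 8.21 CPM in siHoxa5 and 252 ± 36.4 CPM in siN, and SEC62 751 ± 33.7 CPM in siHoxa5 and 851 ± 90.2 CPM in siN (SD, n = 4 each). None of these 3 passed the edgeR test (adjusted p = 0.243 for CLINT1, 0.294 for CUL4B and 0.088 for SEC62). The choice ran over all 8 libraries with the group difference included. Their lower means in siHoxa5 thus follow from the choice and are no further result.

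**Figure D5:**
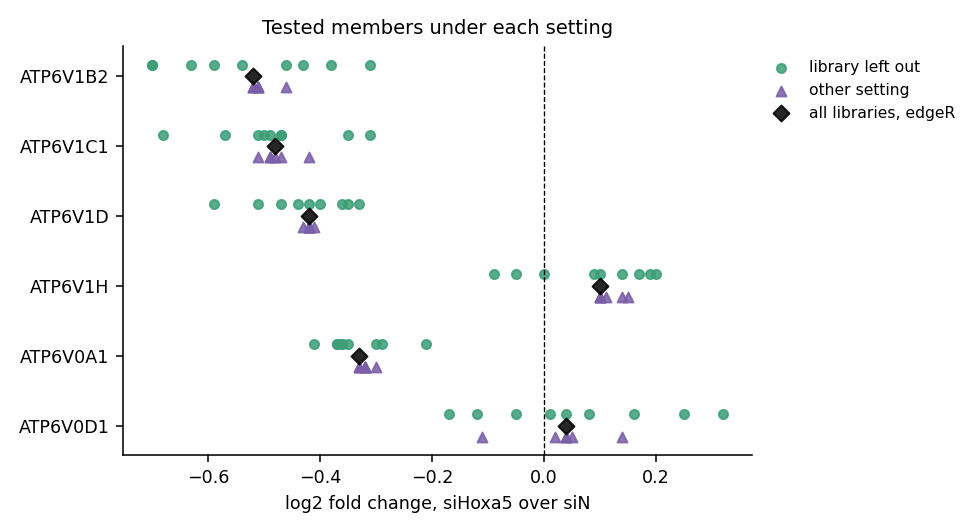
Log2 fold change of siHoxa5 over siN (x axis) for each tested member with all libraries and edgeR (diamonds), with libraries left out (circles) and under the other settings (triangles). ATP6V1B2, ATP6V1C1, ATP6V1D and ATP6V0A1 stay below 0 throughout, while ATP6V1H and ATP6V0D1 fall on both sides of 0; no point passed the threshold.

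Under all 16 other settings 0 members passed, wherever they were tested. ATP6V1B2 ranged from -0.70 to -0.31 on the log2 scale, ATP6V1C1 from -0.68 to -0.31, ATP6V1D from -0.59 to -0.33 and ATP6V0A1 from -0.41 to -0.21. These settings share most of their libraries, so a constant sign is no further evidence. Without siHoxa5 libraries 2 and 4 the values were -0.59 for ATP6V1B2, -0.47 for ATP6V1C1, -0.51 for ATP6V1D, -0.05 for ATP6V1H, -0.41 for ATP6V0A1 and 0.25 for ATP6V0D1.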

How the data were processed

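Poly-A RNA of cultured mouse cardiomyocytes was sequenced, 4 libraries a group, and the sample titles give each library's group and replicate number. The values deposited by the authors are unnormalized estimated counts, listed by gene symbol. A value ending in 0.5 occurs in 4 rows, and 4 rows have a symbol that another row shares. Some tested rows have dates in place of symbols, such as 11-Sep and 3-Mar. Per the submitters' processing notes the tools were STAR 2.6.1b, HTSeq, FastQC 0.11.8 and R 3.5.3, and the build was mm10; annotation, strand setting and how multiply matching reads were handled are not given in these sources. The series table and the 8 single-library files held the same values.

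Counts were rounded and tested with edgeR 4.0.16 (limma 3.58.1, R 4.3.3): TMM scaling, filterByExpr (minimum count 10, minimum total 15), robust quasi-likelihood fit with group as the only term, Benjamini-Hochberg adjustment over all 3020 tested genes, which held 98.6% of counts, threshold 0.05. CPM uses TMM-scaled library sizes. Library totals ran from 560190 to 658192 counts. Intervals for ratios of summed counts are exact (Clopper-Pearson, 95%), cover counting error only, and leave the spread between libraries out. Alternatives were DESeq2 1.42.0, limma-voom, DESeq2 size factors, 2 other filters, a length and GC offset, a replicate block and leaving out libraries; the omission of siHoxa5 libraries 2 and 4 was chosen after seeing the data.

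The members and the lists of related genes were chosen with earlier results of these data known. Named were all members, V-ATPase genes that passed the filter, up to 4 tested genes with the smallest p in each lysosomal list, and the 3 genes most like the member with the smallest p; TFEB, the genes named as being at 0 and the marker genes fall outside that rule. An item that the rule names is not reported here. Related lists were other V-ATPase subunits, V-ATPase assembly, lysosomal hydrolases, lysosomal membrane and lysosomal nutrient sensing.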

Additional observations from a re-analysis of the deposited data

Results flagged for a closer look

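ATP6V0A1 in siN library 2, at 111 CPM, stood farther from the other siN libraries, which lay at 81.8 to 85.8 CPM, than Dixon's limit for 4 samples allows. ATP6V1A in siHoxa5 library 2, at 3.64 CPM or 2 counts, stood below the other siHoxa5 libraries, at 12.7 to 13.1 CPM, by the same measure. These were 2 of 24 groups of 4 values looked at, and chance alone flags about 1 in 20.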

How the results depend on the processing

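The count of members past the threshold was 0 under each of the 16 other settings, and so were the counts for other V-ATPase subunits, assembly genes and nutrient-sensing genes. For lysosomal membrane genes it was 0 in all but 1 setting: leaving out single libraries gave 0 to 1, with CLCN6 (-0.98) the gene called without siHoxa5 library 2. The count over all genes was 215, with 119 by DESeq2, 143 without siHoxa5 libraries 2 and 4, and 145 to 260 with single libraries left out. The median log2 fold change of the tested members was -0.37 and ranged from -0.47 to -0.30; that of all tested genes was 0.00, with -0.01 by limma-voom and with at least 30 counts in 4 libraries, 0.09 with no filter, and -0.01 to 0.00 with single libraries left out. Values near 0 changed sign: ATP6V0D1 was -0.11 by limma-voom and -0.17 to 0.32 with single libraries left out. ATP6V1H was -0.05 without siHoxa5 libraries 2 and 4 and -0.09 to 0.20 with single libraries left out. TMEM9B was 0.13 without siHoxa5 libraries 2 and 4, and CLCN5 ranged from -0.10 to 0.34 with single libraries left out; the cause was not tested. With at least 30 counts in 4 libraries ATP6V0A1 (-0.32) was the only member tested. Same-numbered libraries of the groups were not paired by the labels, and their deviations correlated at -0.0201 to 0.0662 across genes, with 2 of 4 best matched by their own number; with a replicate block 250 genes were called and 0 members. Depth limits these results: each tested member had 3 to 70 counts a library.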
